A study of Rattus norvegicus with 4 samples.

Results

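Histone gene expression was measured in NR8383 cells, a rat alveolar macrophage line, 4 h after the start of exposure to NM403, a carbon nanotube. Members were all non-control probes whose accession belongs to a rat gene with a symbol starting in H1f, H2ac, H2bc, H2az, H2ax, H3c, H3f3 or H4c. Probes with an accession shared by several genes were left out. The rule found 27 probes of 18 genes, among 45598 non-control probes and 16566 genes with a named probe measured on all arrays. Members were chosen by symbol, but the family itself was selected on earlier results of these 4 arrays, which included the levels of H1f4. The values below, H1f4 above all, are therefore a description and carry no test.

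The design compared NM403 cultures at 0.8 cm2 of material per cm2 of culture with unexposed cultures. The 4 arrays analysed here are 1 group, NM403, of 4 biological replicates per the labels, each culture seeded for 48 h and taken from cells at 20 passages. Unexposed cultures were not analysed here, so no response to NM403 could be measured, and NR8383 is a single cell line. RNA was hybridised to 1-colour (Cy3) Agilent arrays, and the question open to these arrays was which histone messages were present and how they varied between cultures.

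Histones package DNA into nucleosomes, with H2A, H2B, H3 and H4 in the core and the linker histone H1 at the DNA entry site. Replication-dependent histone genes lie in clusters, are transcribed mainly in S phase, and their messages usually end in a conserved stem-loop in place of a poly(A) tail. Variant or replacement histones, such as H2A.Z, H3.3 and H1.0, have polyadenylated messages that are made throughout the cell cycle. H2AX, the variant that is phosphorylated at DNA breaks, has messages of both kinds. How the labelling reaction was primed is not given in the sources used here, so the recovery of messages without a tail is unknown. Messages of replication-dependent genes are nearly alike in their coding parts, and probe sequences were not used here, so which copies a probe reads was not tested.

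Promoter sequence is shown first for the linker histone genes, because H1f4 had the widest range between cultures among the members detected on all 4 arrays. Each line holds 120 bases, from position -130 to position -11 counted from the annotated start, 5′ to 3′ on the gene's strand, from the RefSeq promoter table of build GRCr8. Capitals mark AAACACA (the H1 box of linker histone promoters), the CCAAT motif, the TATA motif TATAAA and the octamer ATTTGCAT, or their reverse complements. The windows are chr17:41914295-41914414 on the plus strand for H1f4, chr17:47421745-47421864 on the plus strand for H1f5, chr17:41794879-41794998 on the minus strand for H1f1, chr7:112473150-112473269 on the plus strand for H1f0 and chr17:41855971-41856090 on the minus strand for H1f6.
H1f4: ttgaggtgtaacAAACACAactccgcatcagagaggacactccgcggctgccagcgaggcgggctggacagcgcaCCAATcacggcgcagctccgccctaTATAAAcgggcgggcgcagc
H1f5: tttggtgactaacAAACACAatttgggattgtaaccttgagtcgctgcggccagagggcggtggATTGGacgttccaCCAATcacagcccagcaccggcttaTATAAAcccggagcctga
H1f1: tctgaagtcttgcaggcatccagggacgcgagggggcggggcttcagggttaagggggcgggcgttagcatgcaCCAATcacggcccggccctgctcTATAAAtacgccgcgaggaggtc
H1f0: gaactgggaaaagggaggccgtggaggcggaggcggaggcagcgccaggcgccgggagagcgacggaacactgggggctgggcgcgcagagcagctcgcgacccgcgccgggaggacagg
H1f6: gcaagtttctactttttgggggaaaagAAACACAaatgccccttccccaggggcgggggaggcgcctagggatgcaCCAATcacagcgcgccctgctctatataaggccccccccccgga
In H1f4 the H1 box starts at position -118, the CCAAT motif at -55 and the TATA motif at -30. In H1f5 the same 3 motifs start at -117, -53 and -28. H1f1 holds CCAAT at -56 and TATAAA at -33 but no H1 box letters, and H1f0, the replacement linker gene, holds none of the 4 motifs. H1f6, the testis linker gene, holds the H1 box at -103 and CCAAT at -54.

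A selection of core and variant genes is shown for comparison. H2ac4, H2ac21 and H2ax were higher on replicates 2 and 4, by middle gaps of 0.51 to 0.59. H2bc12 and the brighter H3f3b probe were not highest there on the scaling used here. The other H3f3b probe was highest there, at 2.12, 2.25, 2.21 and 2.32 on replicates 1 to 4, so H3f3b has no settled order. The windows are chr17:47496138-47496257 on the minus strand for H2ac4, chr2:186468094-186468213 on the plus strand for H2ac21, chr8:53568588-53568707 on the plus strand for H2ax, chr17:47181951-47182070 on the minus strand for H2bc12 and chr10:101757647-101757766 on the minus strand for H3f3b.
H2ac4: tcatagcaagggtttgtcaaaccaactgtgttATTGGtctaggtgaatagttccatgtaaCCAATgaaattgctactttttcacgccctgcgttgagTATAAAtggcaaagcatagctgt
H2ac21: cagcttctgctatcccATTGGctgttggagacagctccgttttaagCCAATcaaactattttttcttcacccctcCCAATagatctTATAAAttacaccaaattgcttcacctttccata
H2ax: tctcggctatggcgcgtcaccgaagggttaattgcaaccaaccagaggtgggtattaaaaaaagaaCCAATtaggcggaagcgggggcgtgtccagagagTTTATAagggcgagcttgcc
H2bc12: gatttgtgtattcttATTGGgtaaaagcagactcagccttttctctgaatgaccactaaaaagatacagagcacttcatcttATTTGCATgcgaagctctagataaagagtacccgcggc
H3f3b: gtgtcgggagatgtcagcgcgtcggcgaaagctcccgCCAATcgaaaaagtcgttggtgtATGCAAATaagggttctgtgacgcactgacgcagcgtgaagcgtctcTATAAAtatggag
In H2ac4 TATAAA starts at -33 and CCAAT at -70, and in H2ac21 TATAAA starts at -44 and CCAAT at -84 and -55, all on the gene strand. In H2ax CCAAT starts at -64, and TATAAA stands on the other strand alone. H2bc12 holds the octamer at -48 on the gene strand, and H3f3b holds it on the other strand at -70.

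Of the 18 genes, 17 had a promoter in the table, which spans 250 bases before to 50 after the start; H4c14 had none. None of the 4 motifs holds another. Searched on both strands, CCAAT stood in 15 of the 17 members against 37.5% of all 33469 promoters, and TATAAA in 11 against 14.2%. The H1 box letters stood in 6 members against 6.99% of all promoters, and the octamer in 5 against 1.78%. The H1 box, CCAAT and TATAAA were all on the gene strand in 3 members, H1f4, H1f5 and H2ac1, and in 0.137% of all promoters. A match of letters is a description and not a bound site.

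**Figure D1:**
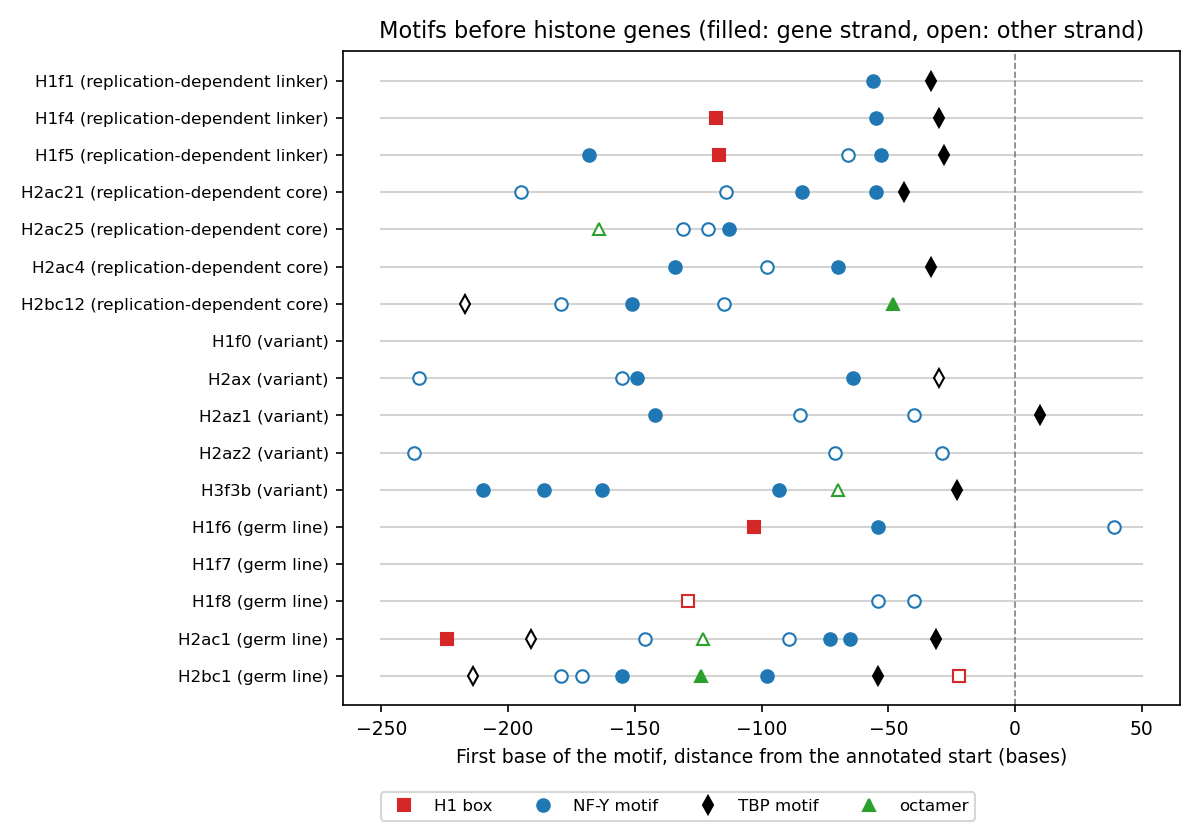
Positions of 4 motifs in the promoter windows of 17 histone genes. The x axis is the distance in bases of the motif's first base from the annotated start, each row is 1 gene with its class, the NF-Y motif is CCAAT and the TBP motif is TATAAA, and filled and open symbols are the gene strand and the other strand. H1f4 and H1f5 carry the H1 box at -118 and -117, and H1f0 carries no motif.

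Each array held 58717 non-control spots, of which 45.9% to 50.8% were well above background, and 0 were saturated. Levels are log2 intensities after subtraction of the array's own 75th percentile, taken over probes above background throughout. A level is comparable between cultures for the same probe, and not between probes. Among 308 negative control spots, the share called above background was 2.27% on replicate 1 (95% exact interval 0.918 to 4.63), the lowest, and 3.57% on replicate 3 (1.80 to 6.30), the highest. Over 7937 detected genes, the arrays fell into pairs: the correlation across genes was 0.996 between replicates 1 and 3, 0.992 between replicates 2 and 4, and 0.967 to 0.970 otherwise. Nothing in the labels separates these pairs, and an SD over the 4 arrays describes paired values. Of 10 macrophage markers, 8 passed on every array, while Adgre1 and Marco, which encode F4/80 and a scavenger receptor, were above background on none. Of 6 epithelial markers 0 passed, and of 5 fibroblast markers 1 did, Dcn.

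Most histone genes were detected, and the split followed their class. A gene counts as detected where its brightest probe was well above background on all 4 arrays. That held for 12 of the 18 histone genes, against 47.9% of all named genes. It held for 7 of 8 replication-dependent genes, 5 of 5 variant genes and 0 of 5 germ line genes. The gene table lists 46 further symbols that fit the rule, 18 of them pseudogenes, which had no named probe here. No H3c gene was among the measured members, so no value here is assigned to replication-dependent H3. Whether a probe without a gene name reads it was not tested. Among the members, H4 was read through H4c14 alone, and H3.3 through H3f3b alone.

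Among the detected linker histone genes the range ran from 4.99-fold for H1f4 to 1.07-fold for H1f0. H1f4, which encodes linker histone H1.4, had processed intensities of 5569, 22351, 4949 and 28416 on replicates 1, 2, 3 and 4. Its scaled levels were 1.04, 3.15, 1.13 and 3.36 (2.17 ± 1.26, SD, n = 4). Replicates 2 and 4 were high and replicates 1 and 3 low, with nothing between. The 2 spots of its probe differed little within an array, with an SD of 0.004 to 0.011. The highest culture was 4.99-fold above the lowest, and 59 of the 7937 detected genes (0.743%) had a larger range. The gap between its 2 middle arrays was 2.02 on the log2 scale, and 31 genes had a larger one. None of those 31 had replicates 2 and 4 as the highest arrays, although 3750 genes had that order. No neighbouring spot within 2 rows and 2 columns of the H1f4 spots read 4-fold above its median on the other arrays.

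H1f5, which encodes linker histone H1.5, had levels of -0.90, -0.02, -0.67 and -0.10 on replicates 1 to 4 (-0.42 ± 0.43). Here too replicates 2 and 4 were the high arrays, with a 1.84-fold range that 17.4% of detected genes exceeded. H1f1, which encodes H1.1, was above background on none of the arrays. H1f0, which encodes the replacement linker H1.0 of differentiated and resting cells, had levels of 1.59, 1.61, 1.58 and 1.51 (1.57 ± 0.04). Its 1.07-fold range was exceeded by 97.3% of detected genes, and its 10 spots had an SD of 0.036 to 0.148 within an array, so the arrays lay within the spread of the spots. H1f4 and H1f0 therefore stood near opposite ends of the spread between cultures on the scaling used here.

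**Figure D2:**
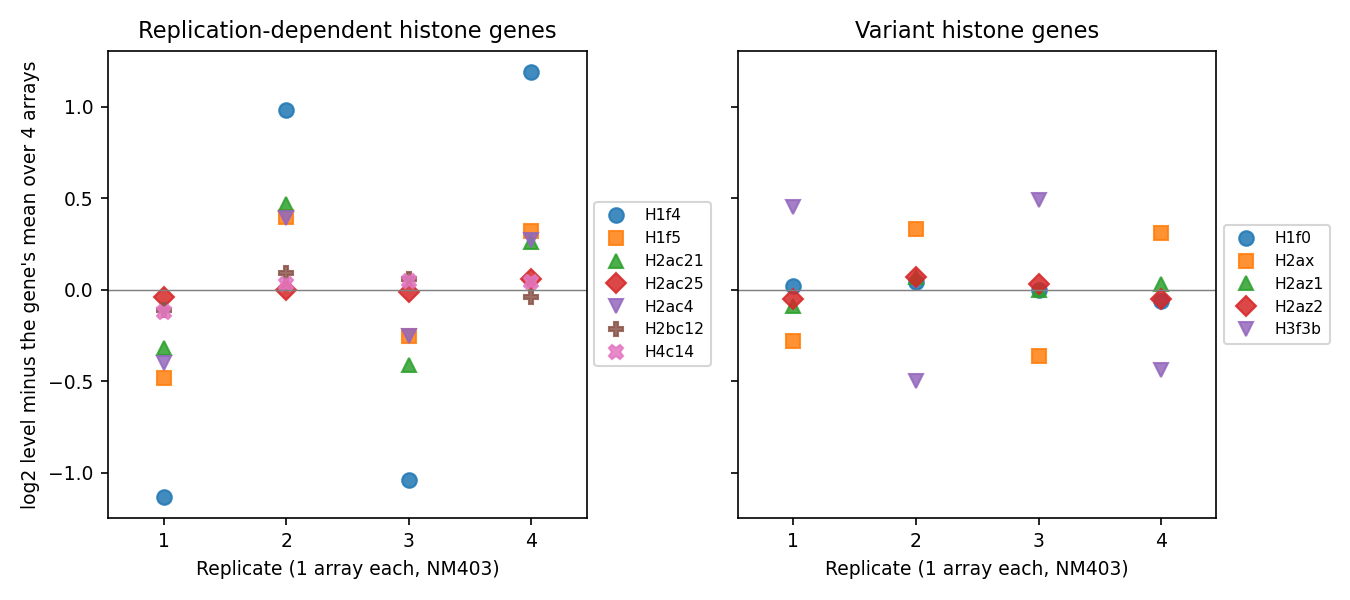
Deviation of each detected histone gene from its own mean over the 4 arrays (log2), by replicate, with replication-dependent genes on the left and variant genes on the right. H1f4 lies at -1.13 and -1.04 on replicates 1 and 3 and at 0.98 and 1.19 on replicates 2 and 4. H3f3b, shown by its brighter probe, runs the other way.

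On the scaling used here, H2ac4 and H2ac21 varied more between arrays than the other replication-dependent core genes. With the array median as scaling, all 7 replication-dependent genes had replicates 2 and 4 highest, against 61.4% of all genes. With the 75th percentile over every probe all 7 did too, against 69.9%. H2ac4, an H2A gene of the main cluster, had levels of 3.56, 4.36, 3.72 and 4.23 on replicates 1 to 4 (3.97 ± 0.39). H2ac21, an H2A gene of a smaller cluster, had -4.51, -3.72, -4.59 and -3.93 (-4.19 ± 0.43). Both were higher on replicates 2 and 4, with ranges of 1.73-fold and 1.83-fold. The spots of H2ac4, 9 or 10 per array, had an SD of 0.032 to 0.049, well below the differences between the high and low arrays.

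The other core genes were nearly level on the scaling used here. With the array median the SD was 0.18 for both H2bc12 and H4c14, and with the percentile over every probe 0.26 for both. H2bc12, which encodes H2B, had 1.11, 1.31, 1.28 and 1.18 on replicates 1 to 4 (1.22 ± 0.09). H4c14, which encodes H4, had 0.75, 0.90, 0.91 and 0.91 (0.87 ± 0.08), and its other probe had 0.76, 0.87, 0.86 and 0.89. H2ac25, an H2A gene outside the main cluster, had -5.26, -5.22, -5.23 and -5.16 (-5.22 ± 0.04), close to the lowest detected levels of -6.23 to -5.63. At that signal a difference between cultures may not be detectable. Their ranges were 1.15-fold, 1.12-fold and 1.07-fold, and no culture stood out in the same way across the 3 genes, though each was lowest on replicate 1.

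Of the 4 variant core genes, H2az1 and H2az2 were nearly level on the scaling used here, while H2ax and the brighter H3f3b probe were not. H2az1, which encodes the main H2A.Z found at promoters, had 3.26, 3.42, 3.35 and 3.38 on replicates 1 to 4 (3.35 ± 0.07). H2az2, which encodes the second H2A.Z, had 1.16, 1.29, 1.25 and 1.16 (1.21 ± 0.06). Their ranges were 1.12-fold and 1.09-fold. The other 3 H2az1 probes had ranges of 1.17-fold to 1.33-fold, and each read lower on replicates 1 and 3 than on replicates 2 and 4. The other H2az2 probe that was detected on all arrays had a 1.22-fold range, and 2 more H2az2 probes were above background on none.

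H2ax had levels of -3.44, -2.82, -3.51 and -2.85 on replicates 1 to 4 (-3.15 ± 0.37). It read higher on replicates 2 and 4, as did H1f4, H1f5, H2ac4 and H2ac21, with a 1.61-fold range that 28.6% of detected genes exceeded. Its single probe was printed once per array, as were those of H1f5, H2ac21 and H2ac25, so no spread of spots can be given for these 4 genes.

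H3f3b, which encodes the replacement histone H3.3, gave different answers by probe. Its brighter probe, A_44_P1086754, had 2.98, 2.03, 3.02 and 2.08 on replicates 1 to 4 (2.53 ± 0.54), high on replicates 1 and 3 and low on replicates 2 and 4. The other probe, A_44_P1366953, had 2.12, 2.25, 2.21 and 2.32 (2.22 ± 0.08). The ranges were 1.98-fold and 1.14-fold. Both probes were printed 10 times, with an SD of spots of 0.039 to 0.069 for the first and 0.035 to 0.051 for the other. The first probe's differences between high and low arrays exceed its spread of spots, the second probe shows none of them, and the direction of H3f3b depends on the probe. Which transcript each probe reads was not tested.

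**Figure D3:**
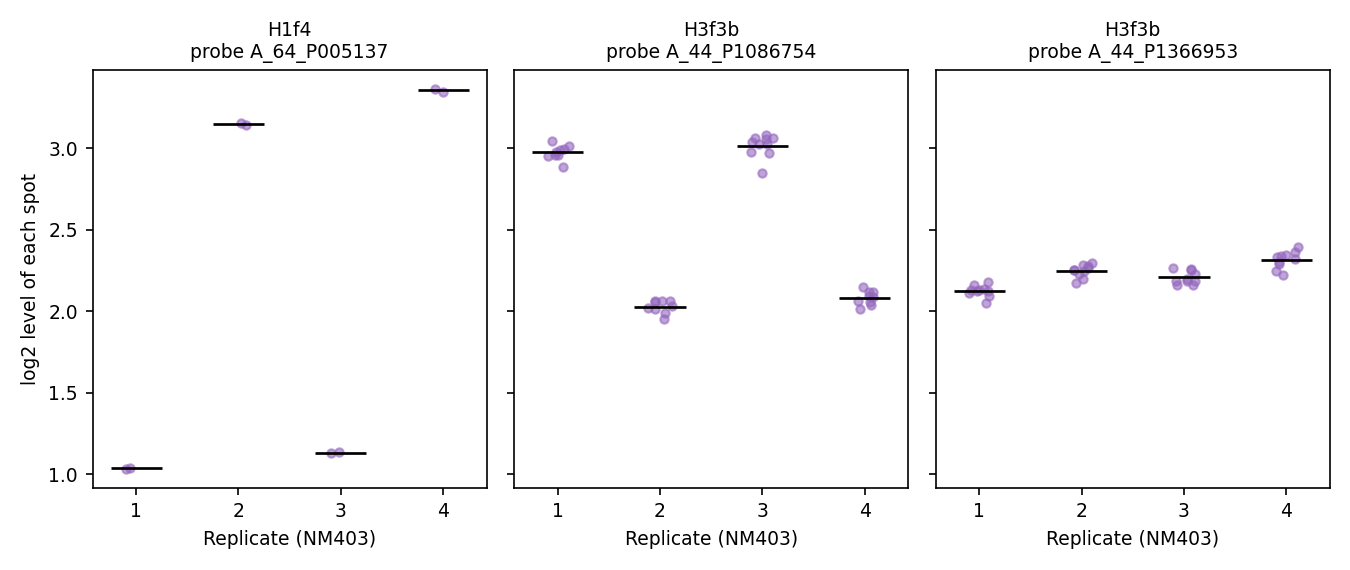
Level of each spot (log2, y axis) by replicate (x axis) for the H1f4 probe and both H3f3b probes, with outlier spots left out and a bar at the mean. The H1f4 spots sit near 1 or above 3, the first H3f3b probe runs the other way, and the second H3f3b probe stays between 2.05 and 2.39.

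The germ line members were at background. H1f6 and H1f7, linker histones of testis, and H2ac1, a testis H2A, were above background on no array. H1f8, the oocyte linker histone, was above background on replicate 1 alone, at -5.96, and on the other arrays its probe read -8.05 to -6.55. H2bc1, the testis H2B, was also above background on replicate 1 alone, at -5.16 for 1 probe, while its other probe was above on none. Of 8 germ cell markers such as Ddx4 and Dazl, 0 were detected on all arrays, and 2 were above background on some: Prm1 on 3 and Tnp2 on 1.

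Set side by side, 7 replication-dependent genes had a median range of 0.79 on the log2 scale (1.73-fold) and 5 variant genes 0.16 (1.12-fold), beside 0.48 (1.40-fold) over all 7937 detected genes. The variant median depended on the scaling: it was 0.38 with the array median, where that of all genes was 0.60, and 0.52 with the percentile over every probe, where that of all genes was 0.71. The median for the replication-dependent core genes alone was 0.20, from 1.07-fold to 1.83-fold, so the class as a whole was not uniform. The core median was close to the variant median, and that of the 2 detected linker genes was 1.6. A range above 2-fold was met by 1 of 7 replication-dependent genes, H1f4, and by 0 of 5 variant genes, against 13.6% of all detected genes. These shares are near the background or rest on a single gene.

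**Figure D4:**
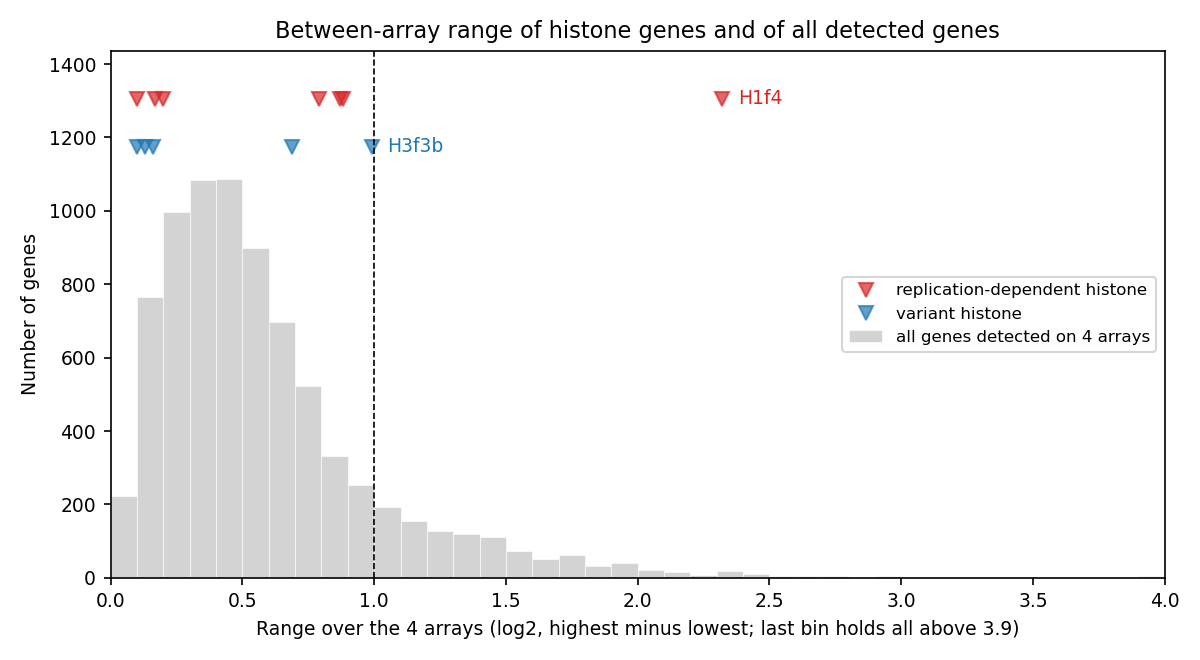
Range over the 4 arrays (log2, x axis) for all 7937 detected genes as a histogram of gene numbers (y axis), with red triangles for replication-dependent and blue for variant histone genes; the height of the triangles has no meaning and the last bar holds every larger range. The dashed line is a 2-fold range, H1f4 lies at 2.32 and H3f3b at 0.99, and the other members lie at 0.88 or below.

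The order of the arrays was counted for each gene without averaging any of them. Replicates 2 and 4 were the highest arrays for 5 of 7 replication-dependent genes and 2 of 5 variant genes, H2ax and H2az1, against 47.2% of all detected genes. Replicates 1 and 3 were the highest for 0 of 7 and 1 of 5, H3f3b by its brighter probe, against 34.5%. H2ac25 and H2az1 entered the count with middle gaps of only 0.01 and 0.03. The count takes each gene's brightest probe. By their other probes detected on all arrays, H2az2, H3f3b and H4c14 had replicates 2 and 4 highest. With the array median as scaling the counts were 7 of 7 and 4 of 5, against 61.4% of all genes. With the percentile over every probe they were the same, against 69.9%. The difference between the classes in this count therefore depends on probe and scaling. Of the other orders, replicates 1 and 2 were highest for H1f0 (5.91% of all genes), replicates 2 and 3 for H2az2 and H2bc12 (3.12%), replicates 3 and 4 for H4c14 (5.17%), and replicates 1 and 4 for 0 members (4.03%). All of these shares are of few genes. Among genes with a range above 2-fold the order was mostly the opposite of that of H1f4: 865 genes (10.9% of those detected) had replicates 1 and 3 highest, and 87 (1.1%) had replicates 2 and 4 highest. H1f4 was 1 of the 87, and 1 gene of that order had a larger range. The median deviation of the replication-dependent genes was -0.32, 0.39, -0.25 and 0.26 on replicates 1 to 4, and that of the variant genes -0.05, 0.07, 0.00 and -0.05. Over all detected genes it was -0.04, 0.04, -0.05 and 0.05.

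Histone variants outside the rule gave further values. H2aj, a replacement H2A gene, had 3.55, 4.29, 3.65 and 4.27 on replicates 1 to 4 (3.94 ± 0.40). Macroh2a1, which encodes the macroH2A variant of repressed chromatin, had 0.04, 0.58, -0.05 and 0.62 (0.30 ± 0.35). Both were higher on replicates 2 and 4. Cenpa, the centromeric H3 variant, had a 1.26-fold range and also had replicates 2 and 4 highest. That order held for 3 of these 3 detected genes, against 47.2% of all detected genes. Macroh2a2 was above background on 1 array.

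Genes that process histone messages or carry and deposit histones mostly read above background. Of 12 measured genes of histone message processing and transcription, 11 passed on every array, against 47.9% of all genes. Of these, 7 had replicates 1 and 3 highest, against 34.5% of all genes, and 3 had replicates 2 and 4 highest, against 47.2%. The 3 were Lsm10 and Lsm11, subunits of the particle that processes histone messages, and Cpsf3, the nuclease that cuts them, with ranges of 1.22-fold, 1.41-fold and 1.39-fold. They were named after their values were seen. Slbp, which encodes the stem-loop binding protein of replication-dependent messages, had -0.10, -0.91, -0.03 and -0.96 on replicates 1 to 4 (-0.50 ± 0.51). Eri1, a nuclease that trims these messages, had -0.11, -1.21, -0.13 and -1.29 (-0.68 ± 0.65). Pou2f1, the octamer-binding factor, had -3.70, -5.38, -3.98 and -5.19 (-4.56 ± 0.84), and Nfat5, on the list but better known for the response to osmotic stress, had a 3.47-fold range in the same order. These 4 genes were low on the arrays where H1f4 was high. Casp8ap2 also had replicates 1 and 3 highest, at -3.43, -3.63, -3.61 and -4.38 on replicates 1 to 4, but mainly replicate 4 stood apart.

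Of 18 measured histone chaperone and deposition genes, 17 passed on every array, against 47.9% of all genes, and 0 of these had a range above 2-fold, against 13.6%. Replicates 1 and 3 were highest for 8 of them and replicates 2 and 4 for 8, so the list had no common order. The chaperone genes Asf1b and Rbbp4 read higher on replicates 2 and 4, with 1.70-fold and 1.55-fold ranges. Hira, which deposits H3.3, had -3.82, -4.76, -3.79 and -4.62 on replicates 1 to 4 (-4.25 ± 0.52). It was high on replicates 1 and 3, an order held by 34.5% of all detected genes. Vps72, a subunit of the complex that deposits H2A.Z, had -2.43, -1.51, -2.36 and -1.43 (-1.93 ± 0.54).

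Cell cycle genes are given for comparison. Of 24 detected S phase genes, 19 had replicates 2 and 4 highest, against 47.2% of all detected genes, and the median deviation was -0.14, 0.21, -0.19 and 0.18 on replicates 1 to 4. The replication helicase gene Mcm7 had 0.04, 0.76, 0.06 and 0.78 (0.41 ± 0.42), while the cyclin gene Ccne2 ran the other way with a 3.06-fold range. Of 17 detected mitosis genes, 10 (58.8%) had replicates 2 and 4 highest, against 47.2% of all genes, and 6 (35.3%) had replicates 1 and 3 highest, against 34.5%. These shares are near those of all genes. The mitosis median deviations were -0.15, 0.15, -0.16 and 0.11 on replicates 1 to 4. They were close to those of the 8 detected macrophage markers, at -0.11, 0.11, -0.12 and 0.13. The S phase median deviations had the same signs as those of the macrophage markers and were somewhat larger. Of the mitosis genes, Mki67 and Cenpf, markers of cycling cells, had replicates 1 and 3 highest, with ranges of 3.11-fold and 4.97-fold. In these bulk samples more cells in a phase and more message per cell cannot be told apart. The part of the cell cycle in the histone values was not tested.

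**Figure D5:**
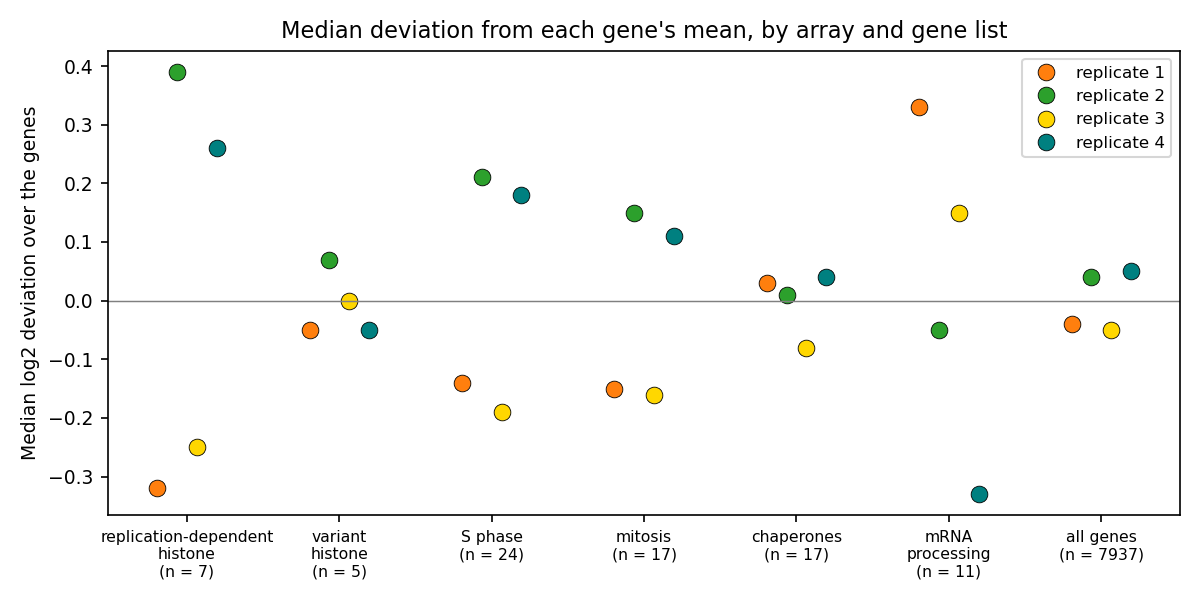
Median deviation over the genes of each list from each gene's own mean (log2, y axis) on replicates 1 to 4, for histone classes, related lists and all detected genes (x axis, with the number of detected genes). Replication-dependent histone, S phase and mitosis medians are above 0 on replicates 2 and 4 and below 0 on replicates 1 and 3. The medians of all detected genes have the same signs, at -0.04, 0.04, -0.05 and 0.05 on replicates 1 to 4.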

How the data were processed

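The deposited files hold 1-colour scanner intensity per spot. The submitters' processing notes name Agilent Feature Extraction 11.0.1.1. Its processed intensity has background and spatial trends removed array by array, per the file headers, and arrays were not brought to a common scale. The design of the array names build rn4. Flags for outliers and for signal well above background were also deposited. Of the probes, 46.3% were named by unversioned accession through the RefSeq table of GRCr8, so no probe coordinates are given.

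Outlier and control spots were left out and the spots of a probe averaged as log2. Because 34.2% of probes were detected on all 4 arrays, each array was scaled on the 75th percentile of those, which hides any change in total messenger RNA. A repeated probe was detected where over 50% of its spots were. A gene took its brightest probe. Every member gene could be named, and related lists were limited to their 6 widest ranges, apart from Lsm10, Lsm11 and Cpsf3. Those were named after their values were seen. Cell type markers were named without that limit. Members, classes and lists were chosen with earlier results of these data known. There was 1 group, so no groups were compared. Dixon's gap ratio over the 4 arrays was the one outlier test. The code for the summaries was run on simulated data. Their noise was independent between arrays and lacked the pairing seen here, so that run does not bear on the spread of these values. Alternatives were other scalings, quantile normalization and normexp (limma 3.58.1, offset 50, on the median spot intensity, since no mean was used), other probe and detection rules, and leaving out each replicate. Python 3.11.15 was used.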

Additional observations from a re-analysis of the deposited data

Results flagged for a closer look

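H4c14 was picked out because replicate 1 stood apart from the other arrays. It read 0.75 on replicate 1 and 0.90 to 0.91 on replicates 2 to 4, so that the gap made up 0.921 of the range, above Dixon's critical value for 4 values. Without replicate 1 the SD was 0.01. The gene's other probe, also lowest on replicate 1, had a ratio of 0.761, below that critical value, so the result depends on the probe. The whole range was 1.12-fold. This was 1 of 12 detected histone genes looked at, and chance picks out about 1 in 20 where the 4 values are independent. These arrays fell into pairs, so that rate may not hold here.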

How the results depend on the processing

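The number of arrays and the signal near background limit what these values can show. H1f4 had a range of 4.32-fold to 6.36-fold under every alternative, and 0 genes with replicates 2 and 4 highest had a larger middle gap under any 4-array setting. The family was selected on results that included H1f4, and these are the same arrays, so the ranks are a description and no independent support. Scaling moved all genes together: the median deviation over detected genes was -0.21, 0.23, -0.25 and 0.23 on replicates 1 to 4 when the percentile covered undetected probes too, and -0.15, 0.15, -0.15 and 0.15 with the array median. On that wider percentile, 4 replication-dependent and 1 variant genes had a range above 2-fold against 18.5% of all genes, the median variant range was 0.52 and 11 histone genes had replicates 2 and 4 highest, against 69.9% of all genes. Scaled on the array median, 4 replication-dependent genes passed 2-fold, against 1031 of all 7937 genes, the median variant range was 0.38 and the order count was 11, against 61.4%. With quantile normalization 2 genes of each class passed 2-fold, against 13.3% of all genes, and the median variant range was 0.26. Taking the mean over a gene's detected probes gave a median variant range of 0.28 and an H3f3b range of 1.39-fold. Replicates 2 and 4 were highest for 4 of 9 remaining histone genes without the dimmest genes, against 53.8% of all genes. Without the replication-dependent probes printed once they were highest for 4 of 9, against 47.15%. The counts were lower because fewer members remained, and neither share was above that of all genes. Leaving out those probes was chosen after seeing the data. Apart from these constructions, the causes were not tested. The replication-dependent median range was 0.50 to 1.15 over all alternatives and stayed above the variant median in each. That median includes the linker genes. The core genes alone, at 0.20 beside 0.16 for the variants in the main setting, were not compared under the alternatives. Leaving out each replicate in turn gave 12 detected histone genes each time. In each case 1 replication-dependent and 0 variant genes passed 2-fold, against 11.2% to 11.9% of all genes. The median ranges were 0.64 to 0.81 for replication-dependent and 0.12 to 0.18 for variant genes. Replicates 2 and 4 were highest for 7 genes without replicate 1 (51.6% of all genes) and for 10 without replicate 3 (51.3%). That count could not be made without replicate 2 or 4. The SD over arrays moved by over 1.5 times for 9 of 12 genes under the wider percentile, 6 under the median, 6 under quantiles, 3 with normexp and 2 with the mean over probes, for H3f3b (0.08) without its brighter probe, a choice made after seeing the data, for H2az1 and H4c14 (0.04 and 0.01) without replicate 1, and for H1f0 and H2ac25 (0.03 each) without replicate 4. No paired analysis was possible because there was 1 group.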
